A study of Homo sapiens with 27 samples.

Results

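The transcripts described here are 10 non-coding host genes of small nucleolar RNAs (snoRNAs), namely SNHG1, SNHG3, SNHG5, SNHG6, SNHG7, SNHG8, SNHG12, SNHG15, SNHG16 and GAS5, out of 57905 gene identifiers in the table. Each of the 10 symbols matched 1 identifier, and all 10 passed the filter on low expression. The members were chosen by symbol after their counts and FPKM in these same 9 libraries had been seen, so every level, fold change and call of a member below is a description and carries no p-value. RNA-seq was run on U937, an established human myeloid leukaemia cell line, in 3 groups of 3 libraries: control cells without matrine, and cells given matrine at 0.8 mg/ml and taken after 30 min or after 24 h. Matrine is an alkaloid of the herb Sophora flavescens, and its vehicle in the study was water. The 3 control libraries served both time points, and their own time in culture is not given in the sources used here, so 24 h of treatment and time in culture cannot be told apart. The study calls its replicates independent in general, but neither it nor the labels say that these libraries came from separate cultures, so the spread between them may be technical. HL-60 and K562 cells were not analysed here.

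A snoRNA host gene makes a long RNA whose introns hold the snoRNAs. When the RNA is spliced, each intron is trimmed to a snoRNA, which is kept in the nucleolus in a complex with core proteins. Box C/D snoRNAs (SNORD) mostly guide 2′-O-methylation of ribosomal RNA, and box H/ACA snoRNAs (SNORA) mostly guide its pseudouridylation. The spliced host RNA of several of these genes has no long reading frame, is bound by ribosomes and is then removed by nonsense-mediated decay (NMD), and many host genes begin at a C followed by a run of pyrimidines, as ribosomal protein genes do. A count of a host transcript is therefore not a count of its snoRNAs.

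The snoRNAs that the members carry are shown first, because the intron products and not the spliced RNA are the part of these genes with a known guide function. By RefSeq's gene models GAS5 held 11 snoRNAs, SNHG1 held 9, SNHG12 held 4 and SNHG16 held 3, SNHG3, SNHG5 and SNHG7 held 2 each, and SNHG6, SNHG8 and SNHG15 held 1 each. The 5 printed here come from the hosts whose level differed most between groups, and are given 5′ to 3′ from the GENCODE 44 transcripts (GRCh38). Capitals mark the C box near the 5′ end and the D box near the 3′ end of the SNORD sequences, and the ACA box of SNORA73B. SNORD25, SNORD27 and SNORD1B hold the C box TGATGA, and SNORD99 holds GATGA at that place.
SNORD25 of SNHG1 (chr11:62855564-62855632, minus strand): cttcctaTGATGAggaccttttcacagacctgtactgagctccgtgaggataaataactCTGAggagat
SNORD27 of SNHG1 (chr11:62855012-62855083, minus strand): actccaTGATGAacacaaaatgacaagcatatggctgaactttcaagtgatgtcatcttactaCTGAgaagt
SNORD1B of SNHG16 (chr17:76561109-76561192, plus strand): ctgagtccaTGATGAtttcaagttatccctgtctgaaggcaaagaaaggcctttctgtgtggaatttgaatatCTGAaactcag
SNORD99 of SNHG12 (chr1:28578749-28578822, minus strand): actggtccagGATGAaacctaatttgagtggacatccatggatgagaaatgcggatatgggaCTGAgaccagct
SNORA73B of SNHG3 (chr1:28508559-28508762, plus strand): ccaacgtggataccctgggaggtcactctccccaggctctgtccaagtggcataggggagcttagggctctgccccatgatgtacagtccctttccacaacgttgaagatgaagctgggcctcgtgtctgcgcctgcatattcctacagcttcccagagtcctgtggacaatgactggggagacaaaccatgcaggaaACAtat

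The promoters are shown next, because the start regions of the members differ. RefSeq (GRCh38.p14) gave a window for 8 of the 10 members, with no entry for SNHG6 or SNHG15. Printed are the 50 bases before and the first 30 bases after RefSeq's gene start, and a gene may also start elsewhere. The printed stretches of GAS5 and SNHG3 lie wholly upstream of the genes as GENCODE 44 places them, which start at 173868882 and 28505980. Motifs given below as absent from these 2 members are therefore absent at RefSeq's start only. Capitals mark TATAA between 40 and 16 bases before the start, and the run of pyrimidines that begins with a C at the start itself.
SNHG12 (chr1:28581844-28581923, minus strand): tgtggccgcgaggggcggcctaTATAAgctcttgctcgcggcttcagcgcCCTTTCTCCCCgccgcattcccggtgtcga
SNHG5 (chr6:85678704-85678783, minus strand): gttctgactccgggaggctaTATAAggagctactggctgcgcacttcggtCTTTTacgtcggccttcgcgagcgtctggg
SNHG7 (chr9:136728155-136728234, minus strand): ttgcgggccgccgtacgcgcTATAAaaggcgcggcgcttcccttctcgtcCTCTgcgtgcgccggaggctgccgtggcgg
SNHG8 (chr4:118278712-118278791, plus strand): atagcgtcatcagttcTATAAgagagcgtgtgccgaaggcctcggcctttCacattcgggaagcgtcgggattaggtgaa
SNHG1 (chr11:62855856-62855935, minus strand): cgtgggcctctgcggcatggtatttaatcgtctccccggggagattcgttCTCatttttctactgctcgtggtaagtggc
SNHG3 (chr1:28505893-28505972, plus strand): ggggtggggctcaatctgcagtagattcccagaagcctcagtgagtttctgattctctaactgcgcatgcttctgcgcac
SNHG16 (chr17:76557714-76557793, plus strand): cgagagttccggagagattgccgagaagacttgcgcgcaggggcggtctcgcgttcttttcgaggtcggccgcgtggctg
GAS5 (chr1:173869016-173869095, minus strand): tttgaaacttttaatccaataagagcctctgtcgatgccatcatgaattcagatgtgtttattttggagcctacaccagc

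Searched on the gene's strand, with 1 window per gene symbol, TATAA stood at this place in 4 of the 8 members (SNHG5, SNHG7, SNHG8 and SNHG12) and in 4.22% of all 27305 promoters. The share was 2.49% among the 8584 promoters of genes tested at 24 h. TATAA stood in 2 of 21 promoters of other non-coding hosts and in 4 of 54 of protein-coding hosts. The 4 members with TATAA are members that were not called lower at 24 h, and 3 of the 4 without it (SNHG1, SNHG3 and SNHG16) are those that were. Nothing is read from this split, since the 24 h values were known when the members were chosen. Over all tested genes with a window, 14.5% of the 214 with TATAA and 11.5% of the 8370 without it were called lower at 24 h. A start at a C with at least 5 pyrimidines in a row was found in 2 of the 8 members (SNHG5 and SNHG12), in 20 of 54 promoters of protein-coding snoRNA hosts and in 4.04% of all promoters. Such a start was also found in 5 of 21 promoters of other non-coding hosts and in 5.64% of those of tested genes. CACGTG, the E-box letters, which read alike on both strands and share no bases with the other motifs in these windows, was found within 250 bases before to 50 bases after the start in 1 of the 8 members, SNHG7, 122 bases before its start, and in 7.43% of all promoters. Among promoters of tested genes the share with CACGTG was 10.8%. It was found in 1 of 21 promoters of other non-coding hosts and in 7 of 54 of protein-coding hosts. Called lower at 24 h were 17.7% of the 931 tested genes with CACGTG and 10.8% of the 7653 without it, and 12.8% of the 484 with the pyrimidine start and 11.5% of the 8100 without it. These matches describe letters in a window only.

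In control cells the members spanned a wide range of levels in FPKM, a level scaled to gene length and to library depth. SNHG5 at 67.7 ± 5.58 FPKM (SD, n = 3), SNHG6 at 67.6 ± 0.834 and GAS5 at 67.3 ± 0.538 formed the upper tier, and their libraries overlapped. A middle tier held SNHG1 at 37.8 ± 0.508, SNHG3 at 36.7 ± 2.59 and SNHG8 at 36.4 ± 3.58, which also overlapped with one another. SNHG15 followed alone at 26.1 ± 0.887. SNHG7 at 16.9 ± 1.97 and SNHG12 at 15.3 ± 0.531 overlapped, and SNHG16 was lowest at 6.70 ± 0.682. After 30 min SNHG1 stood clear of SNHG3 and SNHG8, and SNHG12 at 24.6 ± 1.11 had moved above SNHG7 at 19.7 ± 0.850. After 24 h GAS5 at 55.9 ± 4.35 no longer overlapped SNHG5 or SNHG6, and SNHG8 at 34.6 ± 1.57 was above SNHG1 at 25.4 ± 1.32. Together the 10 members took 1061 ± 33.5 CPM (counts scaled to library depth) in the control, 1205 ± 6.34 after 30 min and 877 ± 26.5 after 24 h. The ranges of the 3 groups did not overlap, from 1036 to 1099, from 1198 to 1210 and from 851 to 904.

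The levels depend on the gene model behind them. The length implied by a member's counts and FPKM was 97.0% of RefSeq's whole gene span for SNHG1, 99.3% for SNHG15, 86.9% for SNHG8, 82.6% for SNHG3, 76.0% for SNHG12, 70.7% for SNHG16 and 70.6% for GAS5. It was 32.4% for SNHG6, and exceeded RefSeq's span at 128% for SNHG5 and 121% for SNHG7. A counted length close to the whole span takes in introns, so for most members spliced RNA, unspliced RNA and intron pieces cannot be told apart in these counts, and FPKM understates a short spliced RNA.

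**Figure D1:**
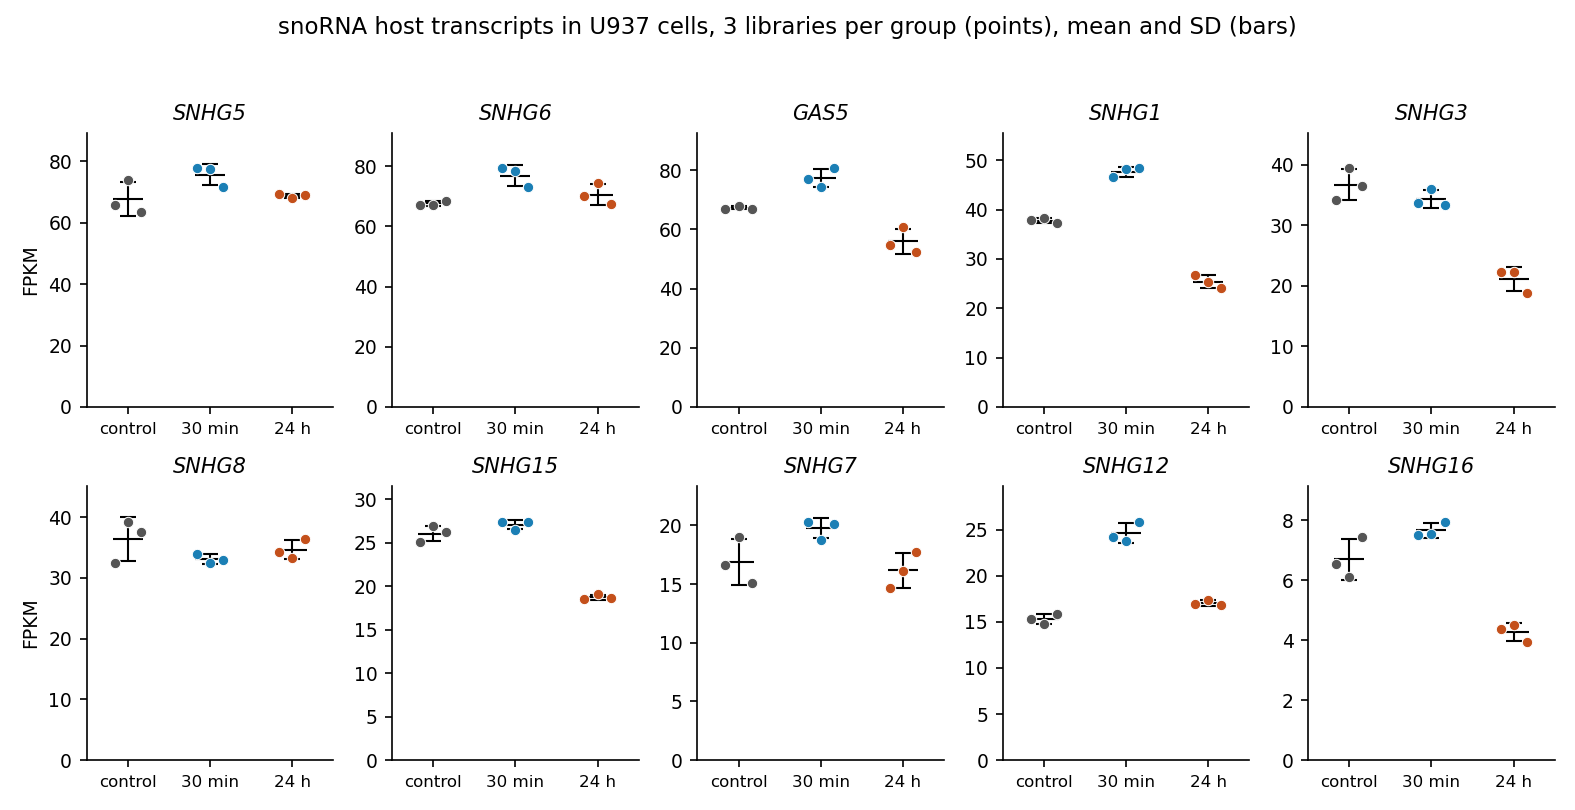
FPKM of each of the 10 snoRNA host transcripts (vertical axis from 0, its own scale in each panel) in the control, 30 min and 24 h libraries. Coloured points are single libraries, and black bars show the mean and SD of 3. SNHG12 has the largest fold change from control to 30 min. In SNHG1, SNHG3, SNHG15, SNHG16 and GAS5 all 3 libraries at 24 h lie below every control and 30 min library.

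The first comparison asked which members had moved within 30 min of matrine. SNHG12, host of 3 H/ACA snoRNAs and 1 C/D snoRNA, changed most. Its control libraries held 14.8, 15.4 and 15.8 FPKM and its 30 min libraries held 23.8, 24.3 and 25.9 FPKM. The groups lay far apart, and the fitted log2 fold change was 0.70 (SE 0.063), or 1.62-fold. A gene was called when edgeR's quasi-likelihood test gave an adjusted p below 0.05 over all genes tested and a fold change of at least 1.5. By this rule 1 member was called higher, SNHG12, and 0 were called lower, against 0.0949% of all 11587 genes called higher and 0.544% called lower. SNHG12 was thus 1 of the 11 genes called higher in these libraries at 30 min. Under a second rule, the adjusted p alone with no fold threshold, added after the data had been seen, 2 members were called higher, SNHG12 and SNHG1, and 0 lower, against 0.293% and 1.33% of all genes. DESeq2 and limma on log2(FPKM + 0.1) also called 0 members lower, and edgeR gave 0 lower at an unadjusted p below 0.05. Nothing about the members is read from these shares, since the same contrast was known when they were chosen.

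SNHG1, the long-known host of U22 and of U25 to U31 (SNORD22 and SNORD25 to SNORD31), held 37.2, 37.9 and 38.2 FPKM in the control and 46.5, 48.2 and 48.4 FPKM after 30 min. These groups did not overlap, and the log2 fold change was 0.35 (SE 0.055). GAS5, named for its build-up in growth-arrested cells and a host of mostly C/D snoRNAs, held 66.9, 67.1 and 67.9 FPKM and then 74.4, 77.1 and 80.7 FPKM, a log2 fold change of 0.21 (SE 0.058). SNHG6, host of SNORD87, and SNHG16, host of the SNORD1 trio, were also higher in each 30 min library than in any control library, with log2 fold changes of 0.20 (SE 0.062) and 0.21 (SE 0.082). In all, the groups did not overlap in 5 members, each time with the treated libraries above, where 4.89% of all tested genes had all treated libraries above and 8.91% below. SNHG7 (log2 fold change 0.24), SNHG5 (0.17), SNHG15 (0.07), SNHG3 (-0.08) and SNHG8 (-0.12) overlapped. The median log2 fold change was 0.20 over the members and -0.0043 over all genes tested. The step was small for all members but SNHG12.

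**Figure D2:**
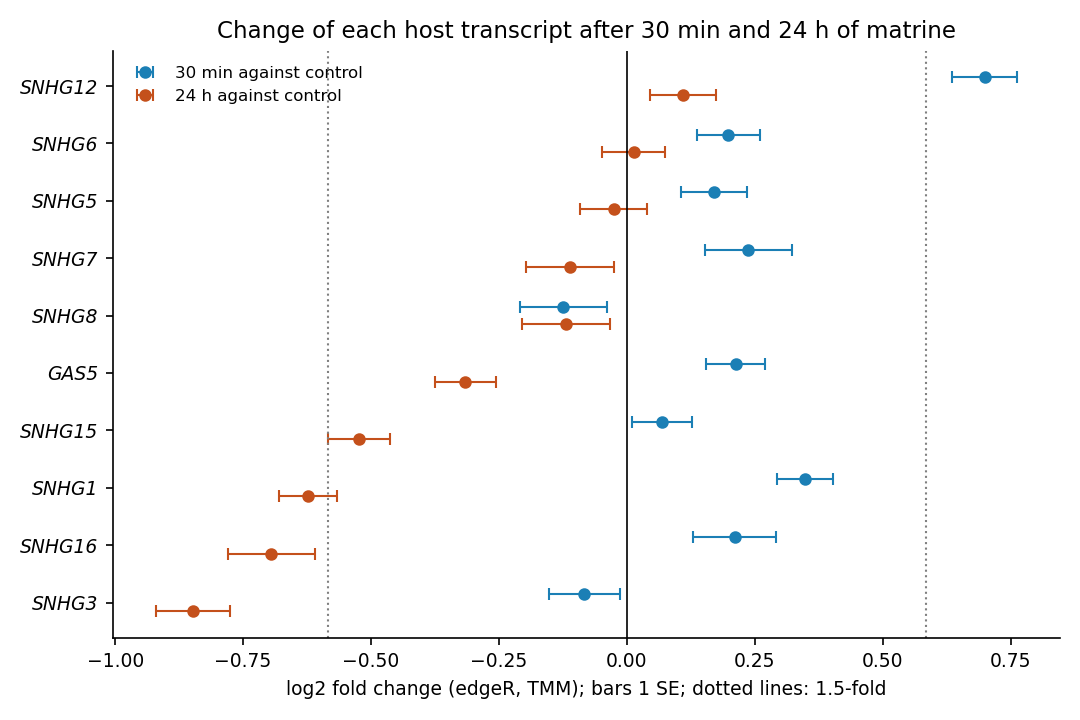
log2 fold change of each member (horizontal axis) after 30 min (blue) and 24 h (orange) of matrine against the same 3 control libraries, as points with bars of 1 SE from edgeR; dotted lines mark a fold change of 1.5. After 30 min only SNHG12 lies beyond a line, at 0.70, and after 24 h SNHG3, SNHG16 and SNHG1 lie beyond the line on the left.

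The second comparison asked where the members stood after 24 h. SNHG3, host of the U17 snoRNAs SNORA73A and SNORA73B, which take part in the cleavage of pre-ribosomal RNA, had the lowest fold change. It held 34.3, 36.5 and 39.4 FPKM in the control and 18.8, 22.3 and 22.3 FPKM after 24 h. No treated library reached the lowest control library, and the log2 fold change was -0.85 (SE 0.072), or 44.4% below the control. SNHG16 held 6.10, 6.55 and 7.44 FPKM and then 3.94, 4.38 and 4.50 FPKM, a log2 fold change of -0.69 (SE 0.085). SNHG1 held 24.0, 25.4 and 26.7 FPKM after 24 h, a log2 fold change of -0.62 (SE 0.057), so its 24 h libraries lay below and its 30 min libraries above every control library. The same was true of SNHG16 and GAS5.

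SNHG3, SNHG16 and SNHG1 made up the 3 members called lower, and 0 members were called higher, against 11.2% of all 12035 genes called lower and 15.1% called higher. For the 0 called higher, edgeR had 0 at an unadjusted p below 0.05, DESeq2 had 0 and limma on log2(FPKM + 0.1) had 1 by the adjusted p alone. SNHG1 lay close to the threshold of 0.585 on the log2 scale. With the library totals as the only scaling (-0.575) or a mean FPKM above 5 as the filter (-0.569) SNHG1 fell short, as it did with limma on log2(FPKM + 0.1) at -0.574 and on log2(FPKM + 1) at -0.558. With limma on log2(FPKM + 1) SNHG16 also fell short, at -0.543, which left SNHG3 as the 1 member called lower there. SNHG15, host of SNORA9, lay just outside at -0.52 (SE 0.061), with 25.1, 26.2 and 26.9 FPKM in the control and 18.5, 18.7 and 19.1 FPKM after 24 h. GAS5 held 52.4, 54.6 and 60.8 FPKM after 24 h, all below the control, with a log2 fold change of -0.32 (SE 0.060). By the adjusted p alone 5 members were called lower, namely these 5, and 0 higher, against 31.8% and 31.5% of all genes.

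The other 5 members stayed near their control level after 24 h. SNHG5, host of the U50 snoRNAs SNORD50A and SNORD50B, held 63.5, 65.7 and 74.1 FPKM in the control and 68.0, 69.2 and 69.3 FPKM after 24 h, a log2 fold change of -0.03 (SE 0.065). SNHG6 had a log2 fold change of 0.01 (SE 0.062), and the sign of both genes changed with the processing. SNHG7, host of the SNORA17 pair, had -0.11 (SE 0.086) and SNHG8, host of SNORA24, had -0.12 (SE 0.085). SNHG12 held 16.8, 17.0 and 17.4 FPKM, slightly above each control library, at 0.11 (SE 0.065). The libraries of 5 members lay wholly below the control, those of 1 lay above and those of 4 overlapped, where 31.0% of all tested genes lay below and 38.7% above. The median log2 fold change of the members was -0.22, against 0.0082 over all genes tested.

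Between 30 min and 24 h of matrine, a comparison that needs no control library, the members stood lower at 24 h in 10 of 10 fitted values. The 5 called lower were SNHG1 at -0.99 (SE 0.056), SNHG16 at -0.93 (SE 0.084), SNHG3 at -0.78 (SE 0.072), SNHG15 at -0.61 (SE 0.060) and SNHG12 at -0.61 (SE 0.063), and 0 were called higher, against 11.5% and 15.4% of all 11981 genes. The adjusted p alone gave 9 members called lower and 0 higher, against 32.6% and 32.5%. The calls of SNHG15 and SNHG12 were lost with library totals alone (-0.531 and -0.530), with a mean FPKM above 5 (-0.534 and -0.533) and with limma on log2(FPKM + 0.1) (-0.529 and -0.526) or log2(FPKM + 1) (-0.508 and -0.504). That of SNHG12 was also lost without 30 min replicate 3, at -0.579. SNHG8 was the member called under neither rule, at -0.01 (SE 0.085), and its sign changed with the processing. The median log2 fold change was -0.58 over the members and 0.014 over all genes tested. The 2 time points share their control libraries, so the values of a member against the control are not independent of each other. Set side by side, SNHG12 had its high at 30 min and was near the control at 24 h, SNHG1, SNHG16 and GAS5 were above the control and then below it, and SNHG3 and SNHG15 overlapped the control at 30 min and were below it at 24 h.

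Across the 9 libraries the members did not all follow 1 pattern. Pearson's r of a member's log2 CPM with the mean of the 10 was 0.989 for SNHG1, 0.979 for GAS5, 0.958 for SNHG15, 0.952 for SNHG16 and 0.873 for SNHG3. It was 0.786 for SNHG7, 0.719 for SNHG5, 0.708 for SNHG6, 0.702 for SNHG12 and 0.159 for SNHG8. Each member is itself part of that mean. The most alike pair was SNHG1 and SNHG16 with r = 0.969, and the least alike was SNHG8 and SNHG12 with r = -0.296. The 5 other tested genes nearest to the members' mean were POLR1C, a subunit of RNA polymerases I and III, with r = 0.989, FKBP1A with 0.989, RPSAP15 with 0.988, FAM83D with 0.987 and NFKBIB with 0.987. These values describe 9 libraries in 3 groups that share depth and treatment.

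Reads of neighbouring genes may affect some members' counts. For neighbours on the opposite strand this depends on the strand setting of the counting, which is not given in the sources used here. How reads in exon bases shared on the same strand were counted is not given either. In GENCODE 44, SNHG3 shares 242 exon bases with RCC1 on the same strand, and RCC1 had log2 fold changes of 0.04 (SE 0.049) at 30 min and -0.87 (SE 0.051) at 24 h, beside -0.08 and -0.85 for SNHG3. At 24 h PRSS12, which shares 2487 bases with SNHG8, stood at -0.26 (SE 0.078), and TRNAU1AP, which shares 8 with SNHG12, stood at 0.31 (SE 0.093), both on the opposite strand. SNHG6 and SNHG7 share exon bases with MCMDC2 and DIPK1B on the opposite strand, both with a mean FPKM below 1. The part of these neighbours in the members' values was not tested.

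The snoRNAs themselves were almost out of reach of these counts. Of 25 snoRNA genes that GENCODE 44 places inside the members on the same strand, 4 had a row in the table. Each of the others has an identifier number above 273493, the highest in the table. Their missing rows therefore reflect the annotation used and do not show what the libraries could detect. SNORD99, the C/D snoRNA of SNHG12 printed above, had 128 counts over the 9 libraries, SNORD1B had 10, SNORA73B had 1 and SNORD87 had 0. SNORD99 was at 0.635 ± 0.341 CPM in the control, 0.972 ± 0.0926 after 30 min and 0.500 ± 0.239 after 24 h. Exact permutation, two-sided and with 3 libraries a side, gave p = 0.2 at 30 min and p = 0.5 at 24 h, where 0.1 is the smallest p it allows. With 3 libraries a side this test cannot pass 0.05 for any difference. SNORD1B had 1, 3 and 2 counts in the control libraries, 1, 2 and 1 after 30 min and 0 in each of the 3 libraries after 24 h, where the same exact permutation test gave p = 0.1, and p = 0.3 at 30 min. The counts of SNORD99 can also hold pieces of the SNHG12 intron around it.

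The remaining non-coding hosts were read from a list of 24 symbols, of which 23 matched and 16 were tested at 24 h. This list and those after it were chosen with earlier results of these data known. Their counts are descriptions, and an adjusted p belongs to a single gene among all genes tested. At 30 min 0 of 15 were called under either rule by edgeR, DESeq2 or limma on log2(FPKM + 0.1), with 2 lower at an unadjusted p below 0.05 in edgeR. By edgeR 4 were called lower and 0 higher at 24 h, as by DESeq2, with a median log2 fold change of -0.25. Of all 12035 genes 11.2% were called lower and 15.1% higher. DANCR, which carries snoRNAs in its introns, held 42.0, 42.1 and 44.4 FPKM in the control and 15.7, 17.2 and 18.6 FPKM after 24 h, a log2 fold change of -1.36 (SE 0.083, edgeR adjusted p = 1.2e-11). SNHG26 stood at -1.36 (SE 0.152, edgeR adjusted p = 1.1e-07), and SNHG9 at -1.24 (SE 0.287). SNHG25 stood at -2.22 (SE 0.476, edgeR adjusted p = 0.00038), but on 18, 18 and 27 counts in the control and 2, 3 and 10 after 24 h. By the adjusted p alone 7 were called lower and 2 higher, SNHG32 at 0.37 (SE 0.061) and TMEM161B-DT at 0.30 (SE 0.128). That rule called 31.8% of all genes lower and 31.5% higher. The fitted fold change of DANCR was lower than that of any of the 10 members.

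Among 68 protein-coding genes with snoRNAs in their introns, 21 were called lower after 24 h, 1 was called higher and the median log2 fold change was -0.30. The shares of all 12035 genes were 11.2% lower and 15.1% higher. RCC1, which shares exon bases with the member SNHG3, is among the 21 called lower. HSPA8, the constitutive heat shock protein of the HSP70 family, held 380, 384 and 398 FPKM in the control and 139, 142 and 144 FPKM after 24 h (log2 fold change -1.50, SE 0.050, edgeR adjusted p = 6.9e-16). WDR43, a ribosome biogenesis factor, stood at -1.40 (SE 0.056) and NCL, nucleolin, at -1.13 (SE 0.047). TPT1, a growth-related protein translated from a pyrimidine-rich 5′ end, rose from 550 ± 9.66 to 892 ± 19.4 FPKM (log2 fold change 0.65, SE 0.051, edgeR adjusted p = 6.1e-10). The adjusted p alone called 52 lower and 2 higher, against 31.8% and 31.5% of all genes. After 30 min 0 passed the fold threshold in edgeR, DESeq2 or limma on log2(FPKM + 0.1), with 6 higher and 1 lower at an unadjusted p below 0.05 in edgeR. On the adjusted p alone EIF4A1 at 0.37 (SE 0.076, edgeR adjusted p = 0.009) and EIF4A2 at 0.31 (SE 0.052, edgeR adjusted p = 0.001), both of the translation initiation factor 4A family, were called higher and EIF5 at -0.27 was called lower. At 30 min that rule called 0.293% of all genes higher and 1.33% lower. Both EIF4A genes were near the control again after 24 h, at 0.05 (SE 0.077) and -0.06 (SE 0.052).

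Most genes for the proteins that bind and assemble snoRNAs were called lower at 24 h. Of 22 listed genes 21 were tested, 17 were called lower and 0 higher by edgeR, as by DESeq2, with 0 higher at an unadjusted p below 0.05, and the median log2 fold change was -0.86. Over all 12035 genes 11.2% were called lower and 15.1% higher. Among the box C/D core, FBL (fibrillarin, the methyltransferase) stood at -0.92 (SE 0.065), NOP56 at -0.90 (SE 0.049), NOP58 at -0.80 (SE 0.074) and SNU13 at -0.73 (SE 0.068), each called lower. Among the H/ACA core, DKC1 (dyskerin, the pseudouridine synthase) stood at -0.83 (SE 0.052), NHP2 at -0.96 (SE 0.060) and GAR1 at -0.91 (SE 0.082), each called lower, and NOP10 at -0.09 (SE 0.067) did not pass. The lowest fold changes were those of RUVBL1, an ATPase of the assembly complex, at -1.52 (SE 0.058, edgeR adjusted p = 7.0e-15), the assembly cofactor NOPCHAP1 at -1.22 (SE 0.115) and the snoRNP chaperone NOLC1 at -1.15 (SE 0.051). NOP56, NOP58 and DKC1 are also in the list of protein-coding hosts. At 30 min 0 of the 21 were called under either rule by edgeR, DESeq2 or limma on log2(FPKM + 0.1), 1 was higher at an unadjusted p below 0.05 in edgeR, and the median was 0.05.

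Factors of nonsense-mediated decay, the pathway known to remove spliced host RNA, were mixed. Of 21 listed genes 19 were tested, 4 were called lower, 1 was called higher and the median at 24 h was -0.25. For all 12035 genes the shares were 11.2% lower and 15.1% higher. MAGOHB at -0.82 (SE 0.086), GSPT1 at -0.76 (SE 0.056) and MAGOH at -0.75 (SE 0.063) were the lowest, of which MAGOH and MAGOHB are paralogs of the exon junction complex that can share reads. SMG6, the endonuclease of the pathway, stood at 0.61 (SE 0.072, edgeR adjusted p = 2.7e-07), a call that was lost without control replicate 2. UPF1, the central helicase, stood at -0.32 (SE 0.060), below the fold threshold. By the adjusted p alone 12 were lower and 3 higher, against 31.8% and 31.5% of all genes.

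**Figure D3:**
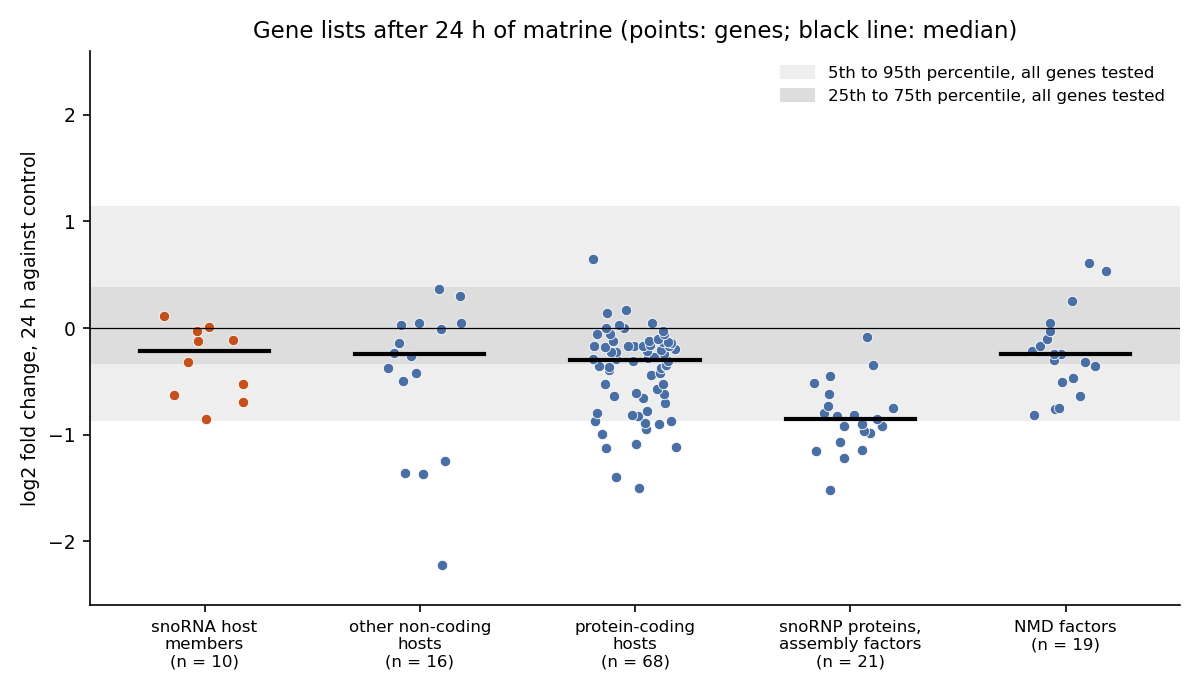
log2 fold change after 24 h of matrine against control (vertical axis) for the 10 members (orange) and 4 other gene lists (blue), with 1 point per gene tested and a black line at each median; grey bands span the 5th to 95th and the 25th to 75th percentile of all genes tested. The medians are -0.22 for the members, -0.25, -0.30 and -0.25 for the other non-coding hosts, protein-coding hosts and NMD factors, and -0.86 for the snoRNP proteins.

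The libraries held 17314931 to 21930018 counts each, of which 4.99% to 5.28% fell on the top 10 genes. Of 16 markers of U937 and myelomonocytic cells 14 had a mean FPKM above 1, and MPO and CD68 did not, at 0.847 and 0.557. Their summed level was 2786 to 3195 FPKM in the control, 2897 to 3056 after 30 min and 3372 to 3547 after 24 h, so the sum was higher at 24 h. ELANE, CTSG, PRTN3, LYZ and AZU1 make up most of it, with means of 1060, 675, 537, 279 and 259 FPKM over the 9 libraries. The sum therefore does not show the direction of the other markers. Of 12 erythroid and megakaryocytic markers 2 were above 1 and 5 had 0 counts in all libraries, with a summed level of 5.95 to 7.09, 5.04 to 6.41 and 6.74 to 7.96 FPKM in the 3 groups. Of 11 markers of other cell types measured, 2 were above 1 and 5 had 0 counts in all libraries, with 2.68 to 3.73, 2.90 to 3.57 and 3.82 to 4.14 FPKM. The part of these levels in the members' values was not tested. In bulk RNA, fewer cells that express a transcript and less of it per cell cannot be told apart.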

How the data were processed

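Total RNA of U937 cells was made into mRNA-seq libraries, and 9 libraries in 3 groups were read. The paper's methods name either poly(A) selection or removal of ribosomal RNA, without saying which was used here. The authors trimmed, mapped and counted the reads (per the labels cutadapt 1.9.1, HISAT2 2.0.1 and HTSeq 0.6.1) and deposited, for each gene and library, the raw count and the FPKM (fragments scaled to gene length and library depth). The paper names hg38 and the submitters' processing notes name GRCh37. The table holds no coordinates, and the annotation release and the strand setting are not given in the sources used here. The highest identifier number is 273493, and GENCODE 44 holds genes with higher numbers inside the members. The annotation behind the counts was therefore not GENCODE 44, and lengths and overlaps read from GENCODE 44 or RefSeq may differ from those counted. Printed coordinates are those of GRCh38 (GENCODE 44 and RefSeq). A gene model that has changed between builds changes a member's counted length.

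Of 57905 identifiers 51996 matched a GENCODE 44 symbol. Counts were scaled with TMM and entered a single quasi-likelihood fit of all 9 libraries in edgeR 4.0.16 under R 4.3.3, with Benjamini-Hochberg adjustment over all genes with a mean FPKM above 1 in the 6 libraries compared. FPKM served for the filter and for levels. An SE is a log2 fold change divided by the square root of its F statistic. A call took an adjusted p below 0.05 with at least a 1.5-fold change. On simulated data for 24 h against control, 187 of 200 changed genes among 12035 were recovered, with 1 false call. Recovery of genes with a fold change close to 1.5, where SNHG1 and SNHG16 lie, was not tested. The members and all lists were chosen with earlier results of these data known. Genes named are the 10 members and, per list, up to 3 called higher and 3 called lower at 24 h with the largest fold changes and groups that did not overlap. The core snoRNP proteins, UPF1, SNHG9, SNHG32, TMEM161B-DT, EIF4A1, EIF4A2, EIF5 and the overlapping genes were named after their values were seen. Members' pattern was matched by Pearson's r over 9 libraries. Alternatives were DESeq2 1.42.0, DESeq2's size factors, library totals, limma 3.58.1 on log2(FPKM + 0.1) and log2(FPKM + 1), other filters and fold thresholds, a fit of the 6 libraries compared, a replicate block and each library left out. No library was a copy of another, since replicates differed beyond sampling noise. Members matched in a list by symbol missed SNHG4, ZNHIT3, RBM8A and PECAM1. Not every gene that overlaps a member is reported here.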

Additional observations from a re-analysis of the deposited data

Results flagged for a closer look

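SNHG1, SNHG16 and GAS5 are given here because every 30 min library lay above and every 24 h library below all 3 control libraries. From 30 min to 24 h the log2 fold change was -0.99 for SNHG1, -0.93 for SNHG16 and -0.55 for GAS5. This difference between the time points carries no test, since the members were chosen with these values known. EIF4A1 and EIF4A2, which carry snoRNAs in their introns, were higher at 30 min and lower again by 24 h, with log2 fold changes between the time points of -0.34 for EIF4A1 (SE 0.075) and -0.39 for EIF4A2 (SE 0.052). Both were picked out for their 30 min values, and this difference uses the same 30 min libraries, so its test is not independent and no p is given. EIF4A1 has near-identical copies elsewhere in the genome that can share its reads.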

How the results depend on the processing

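Of 540 values of the members' log2 fold changes under other settings, 497 moved by less than 1 SD between replicates, 43 moved by more and 0 called values changed sign. Near 0, SNHG5 and SNHG6 at 24 h kept their sign in 13 of 18 settings each, and SNHG8 between the time points in 11 of 18. SNHG1 at 24 h ranged from -0.69 to -0.56 around the threshold. At a fold change of at least 1.2, all genes called numbered 184 at 30 min, 6529 at 24 h and 6699 between the time points, against 74, 3164 and 3223 at 1.5, and members called were 2 higher at 30 min and 5 lower at 24 h. When 2-fold was asked for, these totals were 24, 1120 and 1122, with 0 members called in any comparison. With no fold threshold, chosen after the data were seen, they were 188, 7618 and 7797, with 2 members higher at 30 min, 5 lower at 24 h and 9 lower between the time points. With a mean FPKM above 5 the totals were 49, 1677 and 1700, with 3 members lower between the time points. With no filter the total at 30 min was 123. limma on log2(FPKM + 1) called 1 member lower at 24 h and 3 between the time points, and limma on log2(FPKM + 0.1) and library totals alone also called 3 there.

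In the lists at 24 h, other non-coding hosts called lower numbered 4, against 1 at a mean FPKM above 5 and 7 at a fold of 1.2 or none, and called higher 0, against 2 at a fold of 1.2 or none. Protein-coding hosts called lower numbered 21, against 38 at 1.2, 5 at 2 and 52 with no fold threshold, and called higher 1, against 0 with no filter or at 2 and 2 with no fold threshold. The snoRNP list had 17 lower, against 5 at a fold of 2. NMD factors called lower numbered 4, against 9 at 1.2, 0 at 2 and 12 with none, and called higher 1, against 0 with no filter, with limma on log2(FPKM + 1) or at 2, 2 at 1.2 and 3 with none. Without control replicate 2 the count called higher was 0, and with any other library left out it was 1. The cause of these moves was not tested beyond what a stricter or looser threshold does by construction.

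The share of calls that were lower between the time points was 42.8%, against 32.6% both with library totals alone and with limma on log2(FPKM + 0.1). Replicate numbers are shared between groups, but same-numbered libraries did not deviate together (r from -0.16 to 0.10 over 9 pairs). With the replicate block 1815 genes were called higher and 1343 lower at 24 h, against 1820 and 1344, and 11 and 63 at 30 min as without it. Without 30 min replicate 2, 18 genes in place of 11 were called higher at 30 min. Low counts limit the snoRNA rows and SNHG25.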
